A study of Mus musculus with 40 samples.

Results

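The genes described here encode the subunits of the proteasome, the protease that degrades proteins marked with ubiquitin. They were taken from the RNA-seq count table of mouse bladder urothelial cells by symbol. Members were all genes named Psma, Psmb, Psmc, Psmd or Psme followed by a number, without pseudogenes and without Psmb8 and Psmb9. This gave 41 of the 53465 genes in the table. Of the 41, 39 had enough counts for the filter and entered the tests. Psma8, a core subunit known from testis, had 0 counts in every library, and Psmb11, a core subunit known from thymus, had at most 2 counts in a library, so neither was tested.

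The proteasome has a barrel-shaped core, the 20S particle, whose outer rings are built of alpha subunits (Psma genes) and whose inner rings are built of beta subunits (Psmb genes), a few of which cut peptide bonds. The 19S regulatory particle caps the core: its base holds a ring of ATPases (Psmc genes) that unfold substrates and thread them in, and its lid (Psmd genes) removes ubiquitin chains. Psme genes encode other activators that can bind the ends of the core. In many cell types the transcription factor NFE2L1 raises the subunit genes together when the proteasome is inhibited.

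The series asked how loss of the enhancer histone H3K4 methyltransferases KMT2C and KMT2D alters urothelial cells. The cells grew as organoids in a DMEM/F12 based medium that held EGF, Noggin, R-spondin, the kinase inhibitor Y-27632 and the TGF-beta receptor inhibitor A83-01. RNA-seq libraries of polyA RNA came from 4 groups of 2: labelled Kmt2c and Kmt2d double knockout (dKO) given 1 µM MI-503 for 4 days, dKO given the solvent DMSO, wild type (WT) given MI-503, and WT given DMSO. MI-503 is an inhibitor of the contact between menin and the methyltransferase KMT2A. Not analysed here were 32 of the 40 samples, which came from CUT&RUN, ChIP-seq and PRO-cap. The labels used here do not state the Cre or guide that made the knockout, how many clones it holds, or whether the 2 libraries of a group came from separate cultures, so p-values measure only the spread between these libraries.

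Libraries held 58113705 to 68571176 counts. Kmt2c RNA was lower in dKO than in WT libraries (26.6 and 29.8 CPM in dKO MI-503, 55.2 and 52.3 in dKO DMSO, 60.3 and 61.6 in WT MI-503, 110.2 and 111 in WT DMSO), but Kmt2d RNA was higher (104 and 86.5, 111 and 133, 75.8 and 65.7, 95.4 and 86.5 CPM, in the same order). Counts over a whole gene cannot show the loss of single exons, and dKO is used below as the label gives it. CPM are counts scaled to a library size of 1000000 after TMM, a method that adjusts for differences in RNA composition. Of 12 urothelial markers 11 were tested, and keratins held most of their sum. Among the uroplakins, which mark mature urothelium, Upk1b measured 97.5 to 144 CPM, while Upk1a (0.425 to 1.90 CPM) and Upk3a (0.165 to 2.58 CPM) were near 0 and Upk2 had at most 9 counts and was not tested. The 11 markers summed to 20778 and 18532 CPM in dKO MI-503, 18201 and 20214 in dKO DMSO, 16291 and 15517 in WT MI-503 and 9949.8 and 9128 in WT DMSO. The higher WT sum with MI-503 lay in Krt5 (mean 3974 CPM in DMSO, 7469.6 in MI-503) and Krt7 (1311 and 4989). In WT 5 markers were higher with MI-503, 2 did not pass and 4 were lower. Those lower were Trp63 (456 and 235 CPM), Krt14 (1934 and 1458), Krt18 (1017 and 766) and Upk1b (138 and 102), DMSO before MI-503. Of 6 fibroblast markers 2 were tested, with summed levels between 0.960 and 8.49 CPM that were mostly Pdgfra. Col1a2, Dcn and Lum had 0 counts in every library. Of 5 smooth muscle markers 3 were tested. Their sum was 7.57 and 7.47 CPM in dKO MI-503, 1.41 and 1.16 in dKO DMSO, 42.7 and 40.3 in WT MI-503 and 3.13 and 4.02 in WT DMSO. Acta2 alone held most of this sum (42.0 and 39.6 CPM in WT MI-503). Myh11 had at most 0.416 CPM and was not higher with MI-503 in WT, and Des had at most 0.541 CPM. Cnn1 and Tagln had at most 2 and 9 counts in a library. Of 5 immune markers Cd68 alone was tested (69.8 and 61.2, 13.1 and 13.1, 160.3 and 166, and 18.6 and 16.5 CPM, in that order), Adgre1 had 0 counts in every library and Ptprc and Cd3e had at most 2 counts, and none of 3 endothelial markers was tested. The part of these marker changes in the results below was not tested, and in bulk libraries fewer cells of a type cannot be told apart from less RNA per cell.

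The summed RNA of the 39 tested members was lower with MI-503 than with DMSO in both genotypes. It was 5284 and 5324 CPM in dKO MI-503 and 5873 and 5676 in dKO DMSO, and 5471 and 5578 CPM in WT MI-503 and 6718 and 6783 in WT DMSO. The 2 values of each MI-503 group lay below those of its DMSO group, and WT DMSO had the highest sum. The WT DMSO libraries also had the lowest TMM factors (0.896 and 0.892, against 1.01 to 1.06 in the other 6). Without any scaling, the members took 0.557 and 0.565% of all counts in dKO MI-503, 0.612 and 0.598% in dKO DMSO, 0.553 and 0.562% in WT MI-503 and 0.602 and 0.605% in WT DMSO. On that scale the MI-503 libraries were still the lower ones, while dKO DMSO and WT DMSO overlapped. The sums are a description and were not tested. With 2 libraries on each side, the smallest p that exact permutation allows is 0.33.

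The lower sums with MI-503 lay in the 19S particle and the activators rather than in the core. The 14 core genes summed to 2038 ± 25.0 CPM in dKO MI-503 and 1988 ± 53.1 in dKO DMSO, and to 2218 ± 48.8 in WT MI-503 and 2233 ± 3.18 in WT DMSO (SD, n = 2 each). The 17 genes of the 19S particle summed to 2706 ± 6.96 CPM in dKO MI-503 and 3150.4 ± 67.6 in dKO DMSO, and to 2707 ± 10.1 in WT MI-503 and 3654 ± 18.8 in WT DMSO. The ratio of the 19S to the 20S sum, which does not depend on the scaling, was 1.34 and 1.31 in dKO MI-503, 1.58 and 1.59 in dKO DMSO, 1.24 and 1.21 in WT MI-503 and 1.63 and 1.64 in WT DMSO. The ratio was thus lower in every MI-503 library than in every DMSO library. On the log2 scale the core sum differed by 0.036 in dKO and -0.010 in WT between MI-503 and DMSO, and by 0.051 and 0.16 with scaling by library size alone, while the 19S sum differed by -0.22 and -0.43, and by -0.20 and -0.26 with that scaling. Within the 19S particle the 6 ATPases stood out: their sum was 849 and 851 CPM in dKO MI-503 and 1247 and 1198 in dKO DMSO (0.695-fold), and 802 and 807 in WT MI-503 and 1523 and 1543 in WT DMSO (0.525-fold). Psmc2 had a large share of this fall. Without it, a sum chosen after its values were seen, the ring was at 736 ± 0.423 and 962 ± 26.5 CPM in dKO (0.765-fold) and at 669 ± 6.83 and 988 ± 3.15 CPM in WT (0.677-fold), MI-503 before DMSO.

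**Figure D1:**
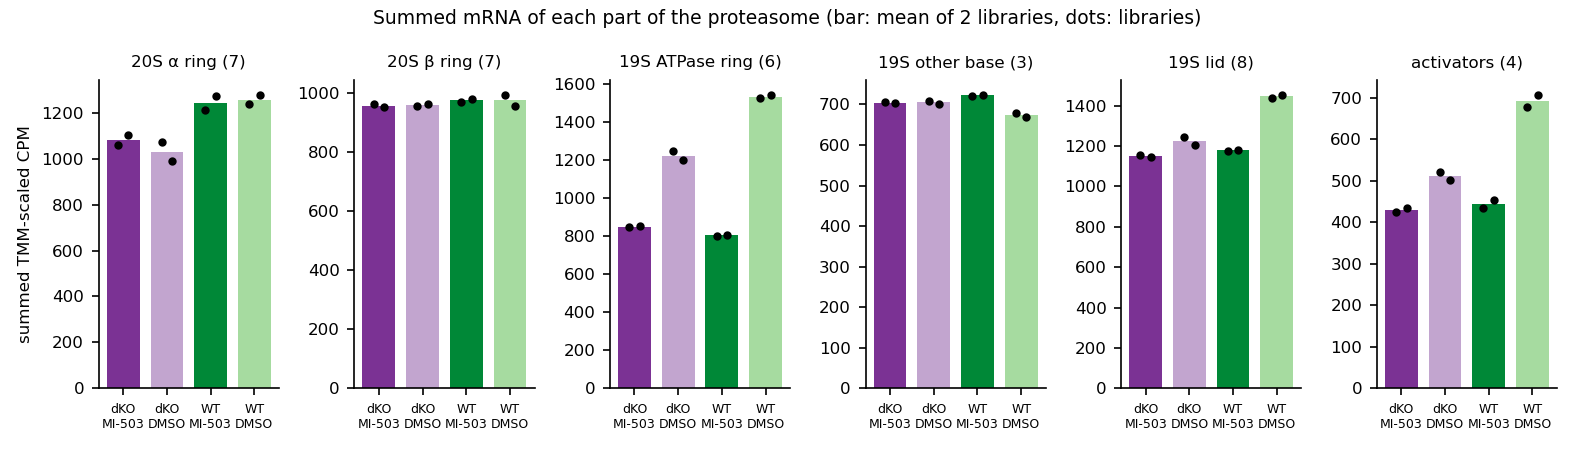
Summed TMM-scaled CPM (y axis, starting at 0) of the tested genes of each part of the proteasome in the 4 groups (x axis), with bars for the mean of 2 libraries and dots for the libraries. The ATPase ring fell to 849 and 851 CPM in dKO MI-503 and to 802 and 807 in WT MI-503, below every DMSO library, while the beta ring stayed between 951 and 994 CPM in all 8 libraries.

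Gene by gene, 14 members had more RNA and 20 had less with MI-503 in WT cells, while 5 did not pass (edgeR, adjusted p under 0.05). Over all 16921 genes tested the same rule called 35.2% higher and 33.7% lower, 69.0% in either direction. The members' median log2 fold change was -0.14, against 0.031 over all genes. In dKO cells 8 members were higher, 12 were lower and 19 did not pass, beside 29.1% higher, 26.5% lower and 55.6% in either direction over all genes. The members' median was -0.027, against 0.031 over all genes. The share of members called lower was thus above the share of all genes in WT, and close to it in dKO. The lists share no library between the 2 genotypes: 10 members were lower in both (Psmc1, Psmc2, Psmc4, Psmc5, Psmc6, Psmd4, Psmd6, Psmd12, Psmd14 and Psme3) and 6 were higher in both (Psma1, Psma5, Psmb1, Psmb10, Psmd13 and Psme1). Over all genes tested, 20.4% were lower in both and 21.1% higher in both. Another 3 members changed in opposite directions, beside 5.06% of all genes: Psmc3 was lower in dKO and higher in WT (2.16% of all genes), and Psma3 and Psmb2 were higher in dKO and lower in WT (2.90%). The WT call of Psmb2 ended with DESeq2, library size scaling, no filter or the stricter filter, and without replicate 1 of WT DMSO or either WT MI-503 replicate, and that of Psma3 ended with library size scaling. With scaling by library size alone, which raised the all-gene median by 0.17 in WT and 0.015 in dKO, 16 members were higher and 16 lower in WT, and 8 higher and 11 lower in dKO. Of all 16921 genes, 7196 were then higher and 4634 lower in WT, and 5049 and 4352 in dKO. The member medians were 0.033 in WT and -0.012 in dKO, still below the all-gene medians of 0.21 and 0.045.

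**Figure D2:**
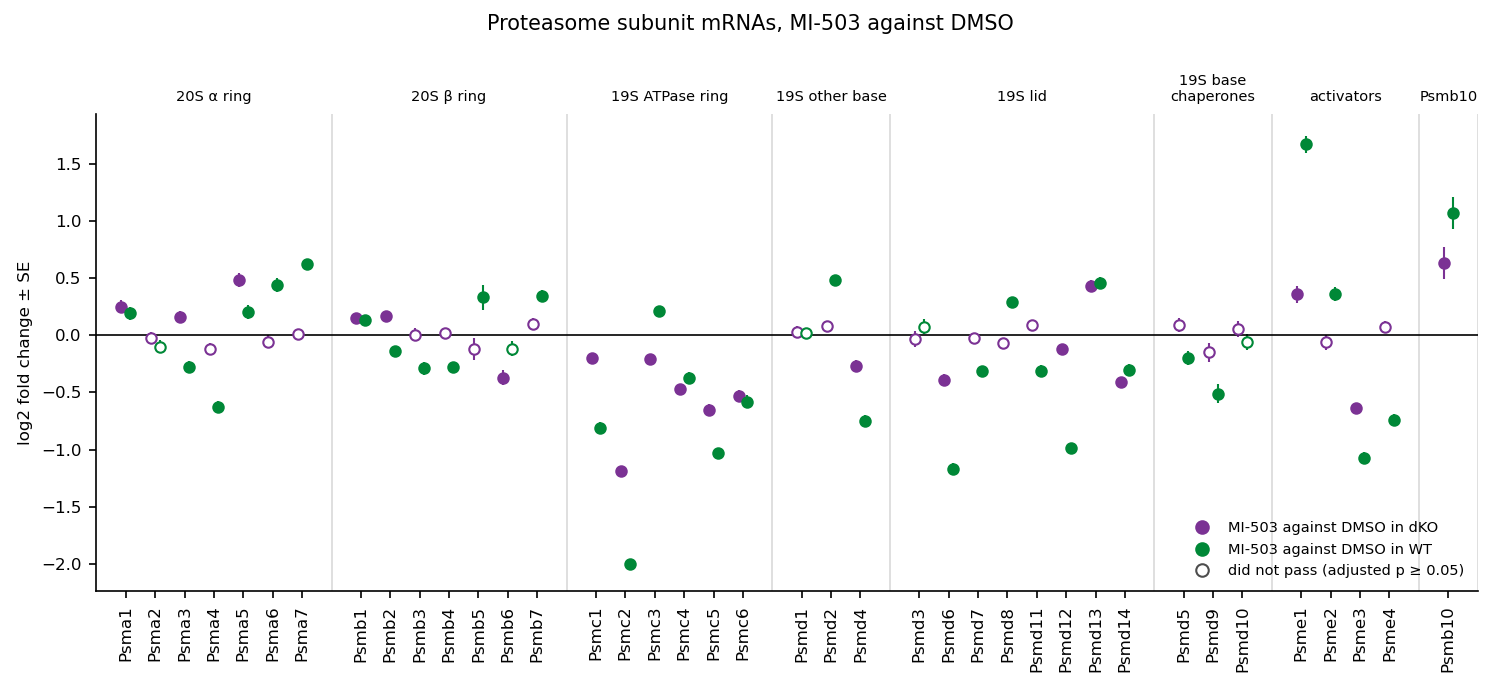
The log2 fold change of MI-503 against DMSO ± SE from edgeR (y axis) of the 39 tested members (x axis), grouped by place in the proteasome, in dKO and in WT. Filled points passed adjusted p under 0.05. All 6 ATPase genes lie below 0 in dKO, 5 of them also in WT, and Psmc2 is the lowest in both, at -1.19 and -2.00.

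The 19S ATPases form the ring at the base of the cap. All 6 were lower with MI-503 in dKO, and 5 were lower and 1 higher in WT, with medians of -0.50 in dKO and -0.70 in WT. Over all genes tested, 26.5% were lower in dKO, and 33.7% were lower and 35.2% higher in WT. Psmc2 (ENSMUSG00000028932, chromosome 5, 21785275 to 21803787 in GRCm38.p6) had the largest fall of any member. It measured 114 and 115 CPM in dKO MI-503 and 266 and 255 in dKO DMSO, and 138 and 134 CPM in WT MI-503 and 533 and 558 in WT DMSO. The 4 groups did not overlap, and WT DMSO stood highest. The log2 fold change was -1.19 (SE 0.047, adjusted p = 1.82e-10) in dKO and -2.00 (SE 0.047, adjusted p = 4.71e-13) in WT, and the fall was smaller in dKO by 0.81 (adjusted p = 3.56e-07). Psmc5 (chromosome 11, 106256185 to 106263112) measured 109 and 106 CPM in dKO MI-503 and 170.4 and 166 in dKO DMSO, and 93.9 and 92.3 CPM in WT MI-503 and 194 and 186 in WT DMSO. Both MI-503 groups lay below both DMSO groups. It fell by 0.65 in dKO (adjusted p = 4.59e-08) and by 1.03 in WT (adjusted p = 1.52e-10) on the log2 scale, a difference of 0.38 (adjusted p = 0.000245). Psmc1, Psmc4 and Psmc6 also fell in both genotypes, by 0.20, 0.47 and 0.53 in dKO and by 0.81, 0.37 and 0.58 in WT. Psmc3 was the exception. It measured 176 and 167 CPM in dKO MI-503 and 196 and 201 in dKO DMSO, and 148 and 145 CPM in WT MI-503 and 129 and 125 in WT DMSO, so that MI-503 was the lower group in dKO and the higher one in WT. Its log2 fold changes were -0.21 in dKO and 0.21 in WT, and they differed by -0.42 (adjusted p = 0.000128).

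The promoters of Psmc2 are shown because the gene moved most of all members, with the promoter of Psmd12, the lid gene whose response differed most between genotypes. Each is the 250 bases before a RefSeq start site in GRCm38.p6, written 5′ to 3′ in the gene's direction. Capitals mark matches, on either strand, to CCGGAAG (a motif of ETS factors), CCAAT (the CCAAT box) or TGACNNNGC (the core of the antioxidant response element, which NFE2L1 and NFE2L2 bind).
Psmc2, first start site, chr5:21785025-21785274, plus strand: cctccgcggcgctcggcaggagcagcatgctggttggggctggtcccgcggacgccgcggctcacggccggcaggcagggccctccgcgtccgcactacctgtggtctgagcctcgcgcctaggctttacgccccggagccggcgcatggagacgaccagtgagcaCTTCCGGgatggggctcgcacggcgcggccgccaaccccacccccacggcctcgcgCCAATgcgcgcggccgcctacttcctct
Psmc2, second start site, chr5:21786497-21786746, plus strand: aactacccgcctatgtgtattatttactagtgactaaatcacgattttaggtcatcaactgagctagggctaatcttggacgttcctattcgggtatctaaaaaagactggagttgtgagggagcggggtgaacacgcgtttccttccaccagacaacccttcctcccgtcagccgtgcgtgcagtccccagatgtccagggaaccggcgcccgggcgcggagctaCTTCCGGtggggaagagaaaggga
Psmd12, chr11:107479278-107479527, plus strand: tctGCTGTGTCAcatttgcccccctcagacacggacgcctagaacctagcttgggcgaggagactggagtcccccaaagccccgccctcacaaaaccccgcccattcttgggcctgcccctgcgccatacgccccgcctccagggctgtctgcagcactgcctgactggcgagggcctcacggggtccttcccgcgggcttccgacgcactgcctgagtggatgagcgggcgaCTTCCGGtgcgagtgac
The ETS letters lie 84 and 24 bases before the 2 start sites of Psmc2 and 17 bases before that of Psmd12, each on the opposite strand. The first Psmc2 window also holds a CCAAT box at 28 bases. Psmd12 holds the antioxidant response letters at 247 bases, on the opposite strand. A promoter window was available for 34 members, and the ETS letters were found in 11 of them (32.4%), against 7.83% of 27025 genes with a window and 15.1% of the 10885 of these that were tested. By place, 1 of 7 alpha ring genes, 0 of 4 beta ring genes, 3 of 5 ATPase genes, 2 of 3 other base genes, 3 of 6 lid genes and 2 of 4 activator genes had them. The antioxidant response letters were in 5 of 34 members (14.7%), against 11.5% of genes and 14.0% of tested genes, the CCAAT box in 13 (38.2%, against 37.5% and 40.4%) and the E-box CACGTG in 4 (11.8%, against 6.86% and 9.67%). These shares describe letters in short windows and not bound factors.

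The other base subunits are the scaffold proteins Psmd1 and Psmd2 and the ubiquitin receptor Psmd4. Psmd4 measured 121 and 117 CPM in dKO MI-503 and 137 and 149 in dKO DMSO, and 109 and 107 CPM in WT MI-503 and 187 and 176 in WT DMSO. In each genotype the MI-503 libraries lay below the DMSO libraries. It fell by 0.27 in dKO (adjusted p = 0.000638) and by 0.75 in WT (adjusted p = 1.75e-08). Psmd2 rose in WT by 0.48 (adjusted p = 1.61e-07) and had a log2 fold change of 0.078 in dKO that did not pass, and Psmd1 passed in neither genotype (0.030 and 0.018).

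The lid genes were split. In dKO 1 of the 8 rose, 3 fell and 4 did not pass, with a median of -0.050, and in WT 2 rose, 5 fell and 1 did not pass, with a median of -0.31. Those that passed were 50.0% of the lid genes in dKO and 87.5% in WT, beside 55.6% and 69.0% of all genes tested. Psmd6, a lid scaffold subunit, measured 70.4 and 71.8 CPM in dKO MI-503 and 95.0 and 90.9 in dKO DMSO, and 71.7 and 74.8 CPM in WT MI-503 and 158 and 171 in WT DMSO. The 2 MI-503 groups overlapped each other and lay below both DMSO groups. It fell by 0.39 in dKO (adjusted p = 2.6e-05) and by 1.17 in WT (adjusted p = 1.72e-10), with a difference of 0.78 (SE 0.074, adjusted p = 1.67e-06). Psmd12, also a lid scaffold subunit, measured 144 and 149.8 CPM in dKO MI-503 and 164 and 156 in dKO DMSO, and 138 and 142 CPM in WT MI-503 and 275 and 282 in WT DMSO. The WT DMSO libraries stood apart from the other 6. Its log2 fold change was -0.99 in WT (adjusted p = 2.44e-10) and -0.12 in dKO (adjusted p = 0.0354), and the difference was 0.87 (adjusted p = 2.15e-07). The small dKO change did not pass without replicate 1 of dKO DMSO (-0.093, adjusted p = 0.174), without either dKO MI-503 replicate (adjusted p = 0.197 without replicate 1 and 0.0532 without replicate 2) or without either WT MI-503 replicate (0.0618 and 0.0546), nor with DESeq2 or library size scaling. Psmd14, the deubiquitinase of the lid, fell by 0.41 in dKO (169 and 172 CPM in MI-503, 234 and 219.5 in DMSO) and by 0.30 in WT (173 and 179 CPM in MI-503, 215 and 219.9 in DMSO). Psmd7, its partner in the lid, fell by 0.31 in WT (adjusted p = 1.56e-05) and did not pass in dKO (-0.027). Psmd11 fell by 0.31 and Psmd8 rose by 0.29 in WT, and both missed the threshold in dKO (0.086 and -0.068).

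One lid gene rose in both genotypes. Psmd13 measured 96.2 and 93.1 CPM in dKO MI-503 and 72.6 and 68.3 in dKO DMSO, and 116 and 111 CPM in WT MI-503 and 82.4 and 82.0 in WT DMSO. The MI-503 libraries were the higher ones in each genotype, by 0.43 in dKO (adjusted p = 7.36e-06) and 0.46 in WT (adjusted p = 1.58e-06). Psmd3 passed in neither (-0.031 and 0.076). The 3 base assembly chaperones Psmd5, Psmd9 and Psmd10 help to build the ATPase ring and leave before it is complete. None passed in dKO (0.087, -0.15 and 0.053). In WT Psmd5 fell by 0.20 (adjusted p = 0.00885; the call ended without replicate 1 of WT MI-503, with library size scaling, and with no filter or the stricter one) and Psmd9 by 0.51, and Psmd10 did not pass (-0.060).

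In the core, direction differed between members. Of the 14 genes, 5 rose, 1 fell and 8 did not pass in dKO (median 0.014), and 7 rose, 5 fell and 2 did not pass in WT (median 0.013). Those that passed were 42.9% of the core in dKO and 85.7% in WT, beside 55.6% and 69.0% of all genes tested. Scaling by library size alone gave 7 risen and 2 fallen in WT and the same numbers as TMM in dKO. The 7 risen in WT became 4 without replicate 1 of WT DMSO or replicate 2 of WT MI-503. In dKO the 5 risen became 3 without replicate 2 of either group or with only the groups compared, and the 1 fallen became 2 without replicate 2 of dKO DMSO, without replicate 1 of dKO MI-503, with no filter or with only the groups compared. Psma7, an alpha ring subunit, had the largest rise of the core in WT. It measured 147 and 146 CPM in dKO MI-503 and 147 and 144 in dKO DMSO, and 157 and 154 CPM in WT MI-503 and 105 and 97.9 in WT DMSO. The WT DMSO libraries were the low ones, and dKO showed no difference beyond the spread. The log2 fold change was 0.010 in dKO (adjusted p = 0.871) and 0.62 in WT (adjusted p = 4.2e-08), with a difference of -0.61 (adjusted p = 6.16e-06). Psma6 was likewise highest in WT MI-503 and lowest in WT DMSO: 152 and 157 CPM in dKO MI-503, 169.5 and 152 in dKO DMSO, 178 and 195 in WT MI-503 and 135 and 140 in WT DMSO. Its change was -0.056 in dKO (adjusted p = 0.448) and 0.44 in WT (adjusted p = 1.36e-05).

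The promoter of Psma7 is shown as that of a core gene, with that of the activator gene Psme1, which rose most of all members in WT. The windows shown were picked with the responses of their genes known. Psmc1, Psmc2, Psmc6, Psmd4, Psmd6, Psmd11, Psmd12, Psme3 and Psme4 fell in WT and their windows held ETS letters. Psma6 and Psmd2, the only other members with these letters, rose in WT. Psma3, Psma4, Psmb3, Psmb4, Psmc4, Psmc5, Psmd5, Psmd9 and Psmd14 also fell in WT, but their windows held none. The remaining windows without the letters belonged to members that rose, did not pass or were not tested. Whether the letters go with the response was not tested. Capitals mark the CCAAT box, 196 bases before the Psma7 start site, and none of the 4 motifs was found in the Psme1 window.
Psma7, chr2:180042465-180042714, minus strand: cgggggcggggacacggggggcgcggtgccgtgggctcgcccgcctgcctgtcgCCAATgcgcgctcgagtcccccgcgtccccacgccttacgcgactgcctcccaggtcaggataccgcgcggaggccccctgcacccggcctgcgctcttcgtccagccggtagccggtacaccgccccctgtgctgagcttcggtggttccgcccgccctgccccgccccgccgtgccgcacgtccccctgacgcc
Psme1, chr14:55578244-55578493, plus strand: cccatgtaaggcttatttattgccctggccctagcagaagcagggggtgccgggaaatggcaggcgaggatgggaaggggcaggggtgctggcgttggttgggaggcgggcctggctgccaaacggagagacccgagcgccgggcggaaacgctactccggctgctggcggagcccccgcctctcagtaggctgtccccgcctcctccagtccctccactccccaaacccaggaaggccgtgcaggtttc

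Psma4 went the other way. It measured 133 and 139 CPM in dKO MI-503 and 153 and 142 in dKO DMSO, and 169 and 177 CPM in WT MI-503 and 261 and 275 in WT DMSO. It fell by 0.63 in WT (adjusted p = 8.5e-08) and had a log2 fold change of -0.12 in dKO that did not pass (adjusted p = 0.0721), but did with no filter (0.0238), with only the groups compared (0.0457) or without replicate 2 of dKO DMSO (0.0228). The WT DMSO libraries were again apart, here as the high ones. Psma5 measured 89.1 and 93.1 CPM in dKO MI-503 and 68.9 and 61.8 in dKO DMSO, and 92.1 and 99.3 CPM in WT MI-503 and 82.7 and 84.5 in WT DMSO. It rose by 0.48 in dKO (adjusted p = 1.27e-05), the largest rise of the core there, and by 0.20 in WT (adjusted p = 0.0106). The WT change did not pass without replicate 1 of WT DMSO (adjusted p = 0.0588) or replicate 2 of WT MI-503 (adjusted p = 0.166). Psma1 rose in both genotypes (0.25 and 0.19), Psma3 rose in dKO (0.16) and fell in WT (-0.28), and Psma2 passed in neither (-0.027 and -0.10). The WT rise of Psma1 also ended without replicate 1 of WT DMSO or replicate 2 of WT MI-503, each of which left 30 of the 34 WT calls. The dKO rise of Psma3 ended without replicate 2 of dKO DMSO or of dKO MI-503, which left 18 and 17 of the 20 dKO calls, and with only the groups compared.

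The beta ring holds the 3 catalytic subunits. Psmb5, the chymotrypsin-like one, measured 54.2 and 43.8 CPM in dKO MI-503 and 48.2 and 58.7 in dKO DMSO, and 41.9 and 39.0 CPM in WT MI-503 and 33.8 and 30.6 in WT DMSO. The dKO groups overlapped, and the WT MI-503 libraries were above the WT DMSO libraries. The change was -0.12 in dKO (SE 0.10, adjusted p = 0.331, but -0.29 and 0.029 without replicate 1 of dKO MI-503) and 0.33 in WT (SE 0.11, adjusted p = 0.0136), and the WT value did not pass without replicate 2 of WT DMSO (adjusted p = 0.111) or replicate 1 of WT MI-503 (adjusted p = 0.0819). Psmb6, the caspase-like one, measured 168 and 157 CPM in dKO MI-503 and 199.8 and 219 in dKO DMSO, and 148 and 141 CPM in WT MI-503 and 167 and 146 in WT DMSO. It fell in dKO, by 0.37 (adjusted p = 0.000309), and the WT groups overlapped (-0.12, adjusted p = 0.136). Psmb7, the trypsin-like one, measured 177 and 182 CPM in dKO MI-503 and 173 and 162 in dKO DMSO, and 199 and 214 CPM in WT MI-503 and 159 and 166 in WT DMSO. It rose by 0.34 in WT (adjusted p = 4.28e-05) and had a change of 0.10 in dKO that did not pass (adjusted p = 0.112). The other beta genes had changes between 0.0060 and 0.17 in dKO and between -0.29 and 0.13 in WT. The rise of Psmb1 in both genotypes was small (0.15 and 0.13) and ended in WT without either WT DMSO replicate or replicate 2 of WT MI-503, and in dKO without replicate 2 of either dKO group or with only the groups compared. The pseudogene Psmb6-ps2 had at most 19 counts in a library, and how reads were shared between it and Psmb6 is not known.

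Psmb10 encodes the catalytic subunit that replaces the Psmb7 product in immunoproteasomes, a form known from immune cells and from cells given interferon-gamma. It measured 9.78 and 8.45 CPM in dKO MI-503 and 5.75 and 6.06 in dKO DMSO, and 9.96 and 8.67 CPM in WT MI-503 and 5.18 and 3.69 in WT DMSO. The MI-503 libraries were above the DMSO libraries in each genotype. The gene rose by 0.63 in dKO (SE 0.14, adjusted p = 0.00139) and by 1.07 in WT (SE 0.14, adjusted p = 1.18e-05), and the difference between these rises lay near the threshold (-0.44, adjusted p = 0.0826). It passed with library size scaling (-0.60, adjusted p = 0.0246), no filter (0.00294), the stricter filter (0.0464) and a replicate block (0.0484), and without replicate 1 of WT DMSO (-0.71, 0.00674) or replicate 1 of dKO MI-503 (-0.56, 0.0405).

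The 4 activator genes split by complex. Psme1 and Psme2 encode the 2 kinds of subunit of PA28 alpha-beta, an interferon-inducible activator. Psme1 (ENSMUSG00000022216, chromosome 14, 55578494 to 55581527) measured 36.3 and 34.6 CPM in dKO MI-503 and 25.8 and 29.4 in dKO DMSO, and 54.9 and 57.2 CPM in WT MI-503 and 18.5 and 16.8 in WT DMSO. No groups overlapped, WT MI-503 being the highest and WT DMSO the lowest. It rose by 0.36 in dKO (SE 0.074, adjusted p = 0.000795) and by 1.67 in WT (SE 0.076, adjusted p = 1.79e-10), and the difference of -1.30 was the largest of any member (adjusted p = 3.84e-07). Psme2 measured 29.1 and 28.3 CPM in dKO MI-503 and 31.4 and 28.7 in dKO DMSO, and 54.6 and 57.5 CPM in WT MI-503 and 44.3 and 42.9 in WT DMSO. It rose by 0.36 in WT (adjusted p = 0.000118) and did not pass in dKO (-0.063, adjusted p = 0.425), where its libraries overlapped. The related gene Psme2b had at most 55 counts in a library, and reads of the 2 may be split between them.

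Psme3 encodes the nuclear activator PA28 gamma. It measured 175 and 178 CPM in dKO MI-503 and 280.4 and 270.3 in dKO DMSO, and 170.5 and 178 CPM in WT MI-503 and 358 and 375 in WT DMSO. Both MI-503 groups were at one level, below both DMSO groups. It fell by 0.64 in dKO (adjusted p = 6.1e-08) and by 1.07 in WT (adjusted p = 1.19e-10), with a difference of 0.43 (adjusted p = 0.000101). Psme4 encodes PA200, a large single-chain activator, and measured 184 and 192 CPM in dKO MI-503 and 184 and 173 in dKO DMSO, and 155 and 161 CPM in WT MI-503 and 256 and 272 in WT DMSO. It fell by 0.74 in WT (adjusted p = 1.32e-08) and did not pass in dKO (0.074, adjusted p = 0.243), a difference of 0.81 (SE 0.072, adjusted p = 8.77e-07).

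**Figure D3:**
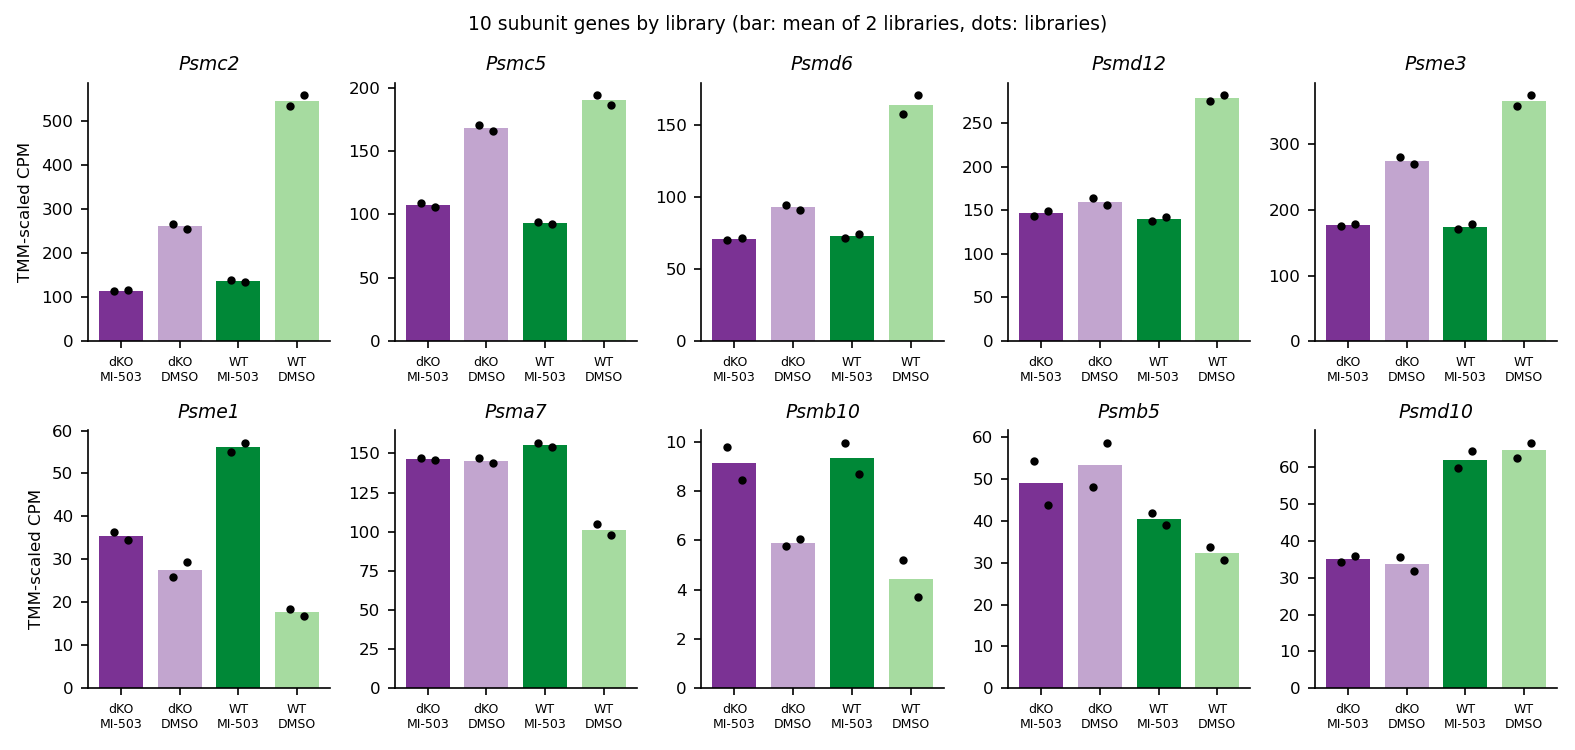
TMM-scaled CPM (y axes, starting at 0) of 10 members in the 4 groups (x axis), with bars for the mean of 2 libraries and dots for the libraries. Psmc2, Psmc5, Psmd6, Psmd12 and Psme3 are highest in WT DMSO, Psme1 is highest in WT MI-503 (54.9 and 57.2 CPM), and Psmd10 is lower in both dKO groups (31.8 to 35.8 CPM) than in both WT groups (59.6 to 66.6 CPM).

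The effect of MI-503 differed between genotypes for 28 of the 39 members: the difference, dKO minus WT, was above 0 for 18 and below 0 for 10 (edgeR interaction, adjusted p under 0.05). Over all genes tested 24.8% were above 0 and 22.0% below, 46.8% in all, and the medians were 0.075 over the members and 0.018 over all genes. With scaling by library size alone, which lowered the all-gene median by 0.16 (a shift of -0.16), 11 members were above 0 and 15 below. Of all genes, 2977 were then above 0 and 5015 below. Of the members with a large difference, Psmd12 (0.87), Psmc2 (0.81) and Psmd6 (0.78) fell more in WT, and Psme1 (-1.30) rose more in WT. Psme4 (0.81) fell and Psma7 (-0.61) rose in WT, and neither passed in dKO. Of the 20S core 6 were above 0 and 5 below, and of the 19S particle 8 were above 0 and 3 below. Library size scaling gave 2 and 5 for the core and 7 and 7 for the 19S particle. The 3 of the 19S particle below 0 became 6 with no filter and 5 with the stricter one. The 5 of the core below 0 became 3 without replicate 2 of WT DMSO, either WT MI-503 replicate or replicate 2 of either dKO group. The differences of the catalytic subunits were smaller, at -0.45 for Psmb5, -0.25 for Psmb6 and -0.24 for Psmb7. Each lost its call in at least 2 of the fits without 1 library. Psmb5 did so without replicate 2 of WT DMSO (adjusted p = 0.0906), replicate 1 of WT MI-503 (0.0747), replicate 2 of dKO DMSO (0.101) or replicate 2 of dKO MI-503 (0.0821). Psmb6 did so without replicate 2 of WT DMSO (0.208), either WT MI-503 replicate (0.149 and 0.0515), replicate 2 of dKO DMSO (0.147) or replicate 2 of dKO MI-503 (0.133), and Psmb7 without replicate 1 of WT DMSO (0.061), replicate 2 of WT MI-503 (0.118) or replicate 1 of dKO DMSO (0.0548).

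Between genotypes, with DMSO alone, 11 members were higher and 23 lower in dKO than in WT, and 5 did not pass. Over all genes tested 29.6% were higher, 35.8% lower and 65.4% either. The median log2 fold change was -0.24 over the members and -0.052 over all genes. This split depended on the scaling, since library size alone raised the all-gene median by 0.23 and gave 16 members higher and 12 lower. Of all 16921 genes, 6899 were then higher and 4288 lower. The member median was then -0.014 and the all-gene median 0.18. The member median thus lay below that of all genes under both scalings. With MI-503, 11 members were higher and 14 lower in dKO than in WT and 14 did not pass, beside 26.6% higher, 28.5% lower and 55.1% either over all genes, and the median was -0.032 over the members and 0.0071 over all genes. Library size scaling, which raised the all-gene median by 0.069, gave 13 members higher and 12 lower, beside 5376 and 4188 of all genes. The 11 higher became 6 without replicate 1 of WT MI-503 and 7 without replicate 2 of WT MI-503 or replicate 1 of dKO MI-503. The DMSO and MI-503 comparisons share no library. In both, 6 members were higher in dKO (Psmb5, Psmb6, Psmc3, Psmc6, Psmd1 and Psmd3) and 9 were lower (Psma1, Psma2, Psma4, Psmb4, Psmc2, Psmd8, Psmd10, Psmd13 and Psme2), beside 16.3% higher in both and 19.3% lower in both over all genes. Another 3 were lower with MI-503 and higher in DMSO (Psma6, Psmd2 and Psme1), and 4 were higher with MI-503 and lower in DMSO (Psmc1, Psmc5, Psmd4 and Psme4), beside 3.26% and 4.52% of all genes, 7.78% in opposite directions in all. Some of these calls rested on 1 library. Psmc6 lost its DMSO call without replicate 1 of either DMSO group, and Psmc6 and Psmc1 lost their MI-503 calls without replicate 1 of WT MI-503 or replicate 2 of dKO MI-503. Psmd3 and Psma2 lost their MI-503 calls without replicate 2 of WT MI-503 or replicate 1 of dKO MI-503, and Psmb4 without either WT MI-503 replicate or replicate 2 of dKO MI-503. Library size scaling ended the MI-503 calls of Psma2 and Psmb4 and the DMSO calls of Psma2, Psmd8, Psmd13, Psmc5 and Psmd4. The DMSO call of Psmc5 also ended with no filter (adjusted p = 0.264), the stricter filter (0.064) and only the groups compared (0.122), that of Psmd8 with no filter and only the groups compared, and that of Psmd13 with no filter.

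**Figure D4:**
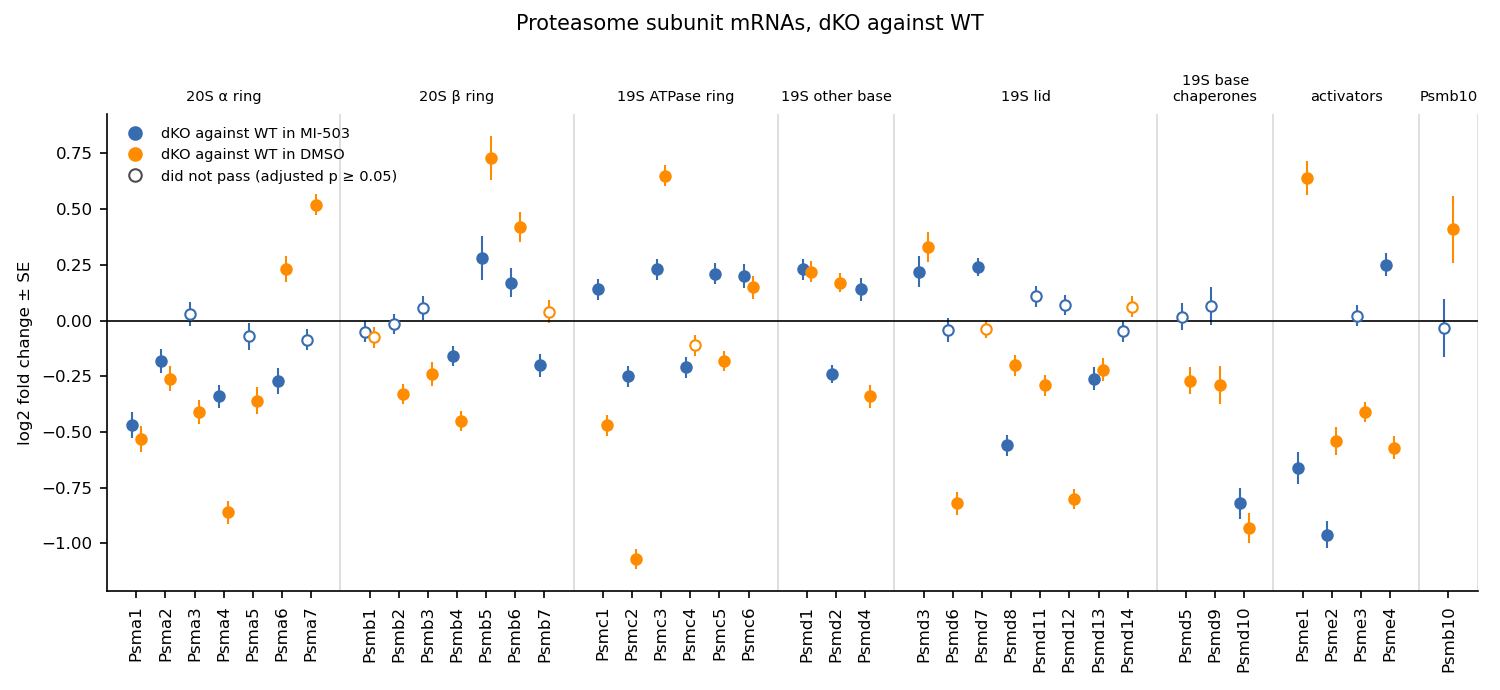
The log2 fold change of dKO against WT ± SE from edgeR (y axis) of the 39 tested members (x axis), grouped by place in the proteasome, with MI-503 and with DMSO. Filled points passed adjusted p under 0.05. Psmd10 lies low in both (-0.82 with MI-503 and -0.93 with DMSO), while Psmc2 is at -0.25 with MI-503 and -1.07 with DMSO.

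The clearest genotype difference that held under both treatments was in Psmd10, the base chaperone also called gankyrin, on the X chromosome (140948425 to 140956711). It measured 34.3 and 35.8 CPM in dKO MI-503 and 59.6 and 64.2 in WT MI-503, and 35.7 and 31.8 CPM in dKO DMSO and 62.5 and 66.6 in WT DMSO. The dKO libraries did not overlap the WT libraries under either treatment. It was lower in dKO by 0.82 with MI-503 (a log2 fold change of -0.82, SE 0.068, adjusted p = 2.15e-07) and by 0.93 in DMSO (-0.93, SE 0.069, adjusted p = 3.54e-08). The other 2 chaperones were lower in dKO in DMSO, Psmd5 by 0.27 (log2 -0.27, adjusted p = 0.0013) and Psmd9 by 0.29 (log2 -0.29, adjusted p = 0.00826), and did not pass with MI-503 (0.018 and 0.066). With library size scaling the DMSO calls of Psmd5 and Psmd9 ended, and Psmd9 also lost its call without replicate 1 of dKO DMSO.

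Psmb5 was higher in dKO, by 0.28 with MI-503 (adjusted p = 0.0359) and by 0.73 in DMSO (SE 0.10, adjusted p = 3.04e-05). The MI-503 value did not pass without replicate 1 (adjusted p = 0.0547) or 2 (0.158) of WT MI-503 or without replicate 1 of dKO MI-503 (0.11 on the log2 scale, adjusted p = 0.405). Psmb6 was higher by 0.17 with MI-503 (adjusted p = 0.045, lost without either WT MI-503 replicate or replicate 1 of dKO MI-503, at 0.0631, 0.221 and 0.237) and by 0.42 in DMSO (adjusted p = 7.28e-05). Psmb7 was lower with MI-503 (-0.20, adjusted p = 0.00473, but 0.107 without replicate 2 of WT MI-503) and did not pass in DMSO (0.039). Psmc3 was higher under both, by 0.23 with MI-503 (adjusted p = 0.000953) and 0.65 in DMSO (adjusted p = 2.93e-08). Psma7 was higher in DMSO by 0.52 (adjusted p = 3.3e-07) and did not pass with MI-503 (-0.086, adjusted p = 0.144).

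Several genes that fell with MI-503 in WT, though not all, were also lower in dKO DMSO than in WT DMSO. These 2 comparisons share the WT DMSO libraries, so their values are given side by side only. Psmc5 fell by 1.03 in WT but was at -0.18 in dKO against WT in DMSO, a call lost in several settings. Psmc6 fell in WT and was higher in dKO DMSO, and Psmc4, Psmd7 and Psmd14 fell in WT and did not pass in that genotype comparison. In dKO against WT in DMSO the log2 fold change was -1.07 for Psmc2, -0.86 for Psma4, -0.82 for Psmd6, -0.80 for Psmd12, -0.57 for Psme4, -0.47 for Psmc1 and -0.41 for Psme3. The MI-503 changes of these genes in WT were -2.00, -0.63, -1.17, -0.99, -0.74, -0.81 and -1.07, in that order. In dKO against WT with MI-503, which uses neither DMSO group, they were -0.25 for Psmc2, -0.34 for Psma4, -0.043 for Psmd6, 0.070 for Psmd12, 0.25 for Psme4, 0.14 for Psmc1 and 0.021 for Psme3. Psmd6, Psmd12 and Psme3 did not pass there, and the libraries of Psmd6 and Psme3 overlapped between the genotypes. The alpha ring had 0 members higher and 4 lower in dKO with MI-503, and 2 higher and 5 lower in DMSO, which library size scaling changed to 0 and 3 with MI-503 and 2 and 3 in DMSO. Over all genes tested, 26.6% were higher and 28.5% lower in dKO with MI-503, and 29.6% and 35.8% in DMSO. The interferon-inducible pair parted between treatments. With MI-503 Psme1 was lower in dKO (-0.66, adjusted p = 3.47e-06) and so was Psme2 (-0.96, adjusted p = 1.58e-08), whereas in DMSO Psme1 was higher (0.64, adjusted p = 4.74e-06) and Psme2 lower (-0.54, adjusted p = 3.82e-06). Psmd7 was higher in dKO with MI-503 (175 and 173 CPM in dKO, 147 and 148 in WT, log2 0.24, adjusted p = 0.000242) and did not pass in DMSO (178 and 177 CPM in dKO, 183 and 181 in WT). Psmb10 was higher in dKO in DMSO (0.41, adjusted p = 0.0238), a call that ended without replicate 2 of WT DMSO (0.19, adjusted p = 0.286) or of dKO DMSO (adjusted p = 0.0892), and did not pass with MI-503 (-0.032). Psma6 was higher in dKO in DMSO (0.23, adjusted p = 0.00424, but 0.0549 without replicate 1 of dKO DMSO). Psmd4 was 0.14 higher with MI-503 (adjusted p = 0.0425), a call that ended in each of the 4 fits without a library of the groups compared (adjusted p 0.103 and 0.179 without WT MI-503 replicates 1 and 2, and 0.218 and 0.051 without dKO MI-503 replicates 1 and 2).

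The genes that act on or with the proteasome were counted from lists chosen for their known roles. The counts are to be read beside the shares of all genes tested, which were 29.1% higher and 26.5% lower with MI-503 in dKO, and 35.2% higher and 33.7% lower in WT. Of the 10 genes of the NFE2L1 activation pathway, 2 rose, 6 fell and 2 did not pass with MI-503 in dKO, and 3 rose, 6 fell and 1 did not pass in WT. Nfe2l1 itself measured 238 and 223 CPM in dKO MI-503 and 509.7 and 537 in dKO DMSO, and 276 and 260.2 CPM in WT MI-503 and 486 and 450.3 in WT DMSO. Its MI-503 libraries were all below its DMSO libraries, with a log2 fold change of -1.19 in dKO (SE 0.056, adjusted p = 8.79e-10) and -0.80 in WT (SE 0.055, adjusted p = 1.22e-08). Ddi2, the protease that cuts NFE2L1 to its active form, fell by 0.68 in dKO and 1.00 in WT, and Ngly1, the glycanase that edits it, fell by 0.93 in dKO and had a change of -0.16 in WT that did not pass. Syvn1, a ubiquitin ligase of the endoplasmic reticulum, fell by 0.94 in dKO (25.0 and 21.1 CPM in MI-503, 41.4 and 47.1 in DMSO) and by 2.83 in WT (17.5 and 16.6 CPM in MI-503, 128 and 114 in DMSO). Nfe2l3, a close relative of Nfe2l1, rose by 1.88 in dKO (3.78 and 3.36 CPM in MI-503, 1.02 and 0.925 in DMSO) and by 2.24 in WT (44.1 and 48.8 CPM in MI-503, 9.38 and 10.3 in DMSO). It was lower in dKO than in WT under both treatments (log2 -3.70 with MI-503 and -3.34 in DMSO).

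Of the 5 factors that assemble the 20S core, 1 rose, 2 fell and 2 did not pass in dKO with MI-503, and 1 rose, 3 fell and 1 did not pass in WT. Psmg1 and Psmg2, which pair to build the alpha ring, both fell in WT and parted in dKO. Psmg1 fell by 0.53 in dKO (20.7 and 21.0 CPM in MI-503, 30.1 and 30.0 in DMSO) and by 1.16 in WT (25.9 and 24.6 CPM in MI-503, 56.8 and 55.9 in DMSO). Psmg2 did not pass in dKO (0.0019; 34.6 and 34.2 CPM in MI-503, 34.8 and 34.0 in DMSO) and fell by 1.37 in WT (27.3 and 26.7 CPM in MI-503, 68.3 and 71.7 in DMSO). Pomp, the chaperone of the closing core, rose in both, by 0.48 in dKO (83.7 and 87.3 CPM in MI-503, 63.3 and 59.5 in DMSO) and by 0.56 in WT (104 and 114 CPM in MI-503, 72.6 and 74.8 in DMSO). The 19S subunits without a Psm name, Adrm1 and Sem1, did not pass in WT (0.077 and 0.10), and in dKO Sem1 rose by 0.17 and Adrm1 did not pass (-0.18). Of the assembly and regulator genes, Akirin2, which brings proteasomes into the nucleus, fell by 0.35 in dKO and 1.21 in WT, and Ecpas, which binds proteasomes under stress, by 0.62 and 0.52. Psmf1, an inhibitor of the core, fell by 0.34 in WT and did not pass in dKO (0.067), Fbxo7 rose by 0.28 and 0.47, and Paaf1 had no value.

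Shuttle factors and deubiquitinases bring substrates to the proteasome and trim their chains. Of 12 such genes, 4 rose and 6 fell in dKO with MI-503, and 1 rose and 9 fell in WT, with 2 not passing in each. Over all genes 55.6% passed in dKO and 69.0% in WT, in either direction. Zfand5, a proteasome activator known from muscle atrophy, measured 74.9 and 84.6 CPM in dKO MI-503 and 219.7 and 205 in dKO DMSO, and 88.1 and 93.3 CPM in WT MI-503 and 364 and 393 in WT DMSO. It fell by 1.41 in dKO (adjusted p = 7.01e-10) and by 2.06 in WT (adjusted p = 6.33e-12). Ubqln1, a shuttle factor, fell by 0.31 in dKO and 1.39 in WT, and Uchl5, a deubiquitinase of the 19S base, by 0.35 and 1.05.

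Of the 6 genes for ubiquitin and its activating enzymes, 1 rose and 2 fell in dKO with MI-503, and 2 rose and 3 fell in WT. Ubb, a polyubiquitin gene, fell by 0.28 in dKO and 0.91 in WT. Of 12 immunoproteasome and interferon-gamma genes, which include Psmb10, Psme1 and Psme2, 8 rose, 1 fell and 3 did not pass in dKO, and 8 rose, 0 fell and 4 did not pass in WT, with medians of 0.68 and 0.83, against 0.031 over all genes in each genotype, of which 29.1% rose in dKO and 35.2% in WT. Tapbp, a peptide-loading factor, rose by 0.73 in dKO and 1.21 in WT, and Irf1, an interferon-induced transcription factor, by 1.71 and 1.37. Psmb8 and Psmb9, the other immunoproteasome core genes, stayed below 2 CPM in all libraries.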

How the data were processed

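Raw read counts per Ensembl gene, not normalized, were deposited by the authors for the 8 RNA-seq libraries. For the series as a whole, the submitters' processing notes list the builds mm10 and GRCm38 and the tools SICER, deepTools, MACS3, Bowtie2 and STAR. Not given in the sources used here were their versions, the annotation, the program that counted reads and its use of strand, which leaves close paralogs and overlapping genes uncertain. 1 line with no gene was left out, and 53274 of 53465 identifiers had a symbol.

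The fit used edgeR 4.0.16 and limma 3.58.1 in R 4.3.3. Of the genes, 16921 passed filterByExpr by group (a minimum count of 10 and a minimum total of 15) and 36544 did not. All 8 libraries entered 1 quasi-likelihood model, with a mean for each group, after TMM scaling (factors 0.892 to 1.06), with 4 residual degrees of freedom and a biological coefficient of variation of 5.14%. Two-sided F tests were adjusted by Benjamini-Hochberg over all genes of a contrast, with a threshold of 0.05. SE was taken as the size of the log2 fold change divided by the root of F, and the prior count was 0.125. The script was tested on simulated data.

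Members and lists were chosen with earlier results of these data known. Every library's value is given for the catalytic subunits, for the 3 largest changes per direction and contrast among members of at least 5 CPM, and for the largest change per subunit group. Other genes were named from the lists, and Zfand5, Syvn1, Nfe2l1, Nfe2l3, Pomp, Psmg1, Psmg2 and Psmd14 were given in full after their values were seen. Promoters came from RefSeq windows of GRCm38.p6. As alternatives, the fit was repeated with DESeq2 1.42.0, with RLE size factors or library size only, with no filter or a stricter one (1 CPM in 2 libraries), on only the groups compared, with a replicate block, and without each library.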

Additional observations from a re-analysis of the deposited data

Results flagged for a closer look

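In a test of the difference itself (edgeR interaction, adjusted p under 0.05), the effect of MI-503 differed between dKO and WT for 28 members, of which 18 are named in the text with full values. As dKO minus WT on the log2 scale, the difference was above 0 for Psmd12 (0.87), Psmc2 (0.81), Psme4 (0.81), Psmd6 (0.78), Psma4 (0.51), Psmd4 (0.48), Psme3 (0.43), Psmc5 (0.38), Psmd7 (0.28) and Psma5 (0.28). The call of Psma5 ended with library size scaling (adjusted p = 0.241), no filter (0.0918) or the stricter filter (0.0514), and without replicate 1 of WT MI-503 (0.0847) or replicate 2 of dKO DMSO (0.0591), and that of Psmd7 ended with library size scaling (0.102) and no filter (0.054). For each of these genes except Psma5, which rose in both genotypes and more in dKO, the WT effect was a fall larger than the value in dKO. The difference was below 0 for Psme1 (-1.30), Psma7 (-0.61), Psma6 (-0.50), Psmb5 (-0.45), Psme2 (-0.43), Psmc3 (-0.42), Psmb6 (-0.25) and Psmb7 (-0.24). Psmb6 fell in dKO and did not pass in WT, Psmc3 fell in dKO and rose in WT, and the other 6 rose in WT. Of these 6, Psme1 rose less in dKO and the others did not pass there.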

How the results depend on the processing

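RLE size factors kept every call of the members in the 5 contrasts, and no alternative turned a called member into a call of the opposite sign. Other settings kept 23 to 34 of 34 calls for dKO against WT in DMSO, 30 to 34 of 34 for MI-503 in WT, 17 to 20 of 20 for MI-503 in dKO, 18 to 25 of 25 for dKO against WT in MI-503 and 21 to 28 of 28 for the interaction. The cause of these changes was not tested.

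With scaling by library size alone, 12 members were lower in dKO against WT in DMSO and 11 had an interaction above 0. The member medians became -0.014 (dKO against WT in DMSO), 0.037 (dKO against WT in MI-503), 0.033 (MI-503 in WT) and -0.084 (interaction). The all-gene medians under that scaling were 0.18, 0.076, 0.21 and -0.14, in the same order. The DMSO genotype median was -0.20 with RLE factors or DESeq2, -0.15 with no filter, -0.16 with the stricter filter and -0.17 with only the groups compared. The median of MI-503 in WT was -0.069 with no filter and -0.068 with the stricter one, and that of the interaction -0.022 and -0.00014. With each library left out in turn, medians ran from -0.24 to -0.19 in dKO against WT in DMSO, -0.19 to -0.13 for MI-503 in WT, -0.040 to 0.017 for MI-503 in dKO and 0.0093 to 0.14 for the interaction. Members called higher in dKO against WT in MI-503 ran from 6 to 12.

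The summed CPM of the members were 5345 (dKO MI-503) and 6626 (WT DMSO) with RLE factors, 5614 (dKO MI-503), 6049 (dKO DMSO) and 6034 (WT DMSO) with library size only, 5339, 5914 and 6479 for these 3 groups with no filter, and 5393 (dKO MI-503) and 6481 (WT DMSO) with the stricter filter. Over the fits without 1 library they ran from 5239.9 to 5389 in dKO MI-503, 5434 to 5611 in WT MI-503 and 6695 to 6885 in WT DMSO.

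Signs turned for values that had not passed, or no longer passed. In dKO against WT in DMSO these were Psmd7 (0.0013 with RLE factors or DESeq2, 0.055 with no filter, 0.047 with the stricter one, 0.037 with only the groups compared, and 0.19 with library size only, where it passed), Psmc5 (0.053) and Psmd13 (0.0065) with library size only, and Psmb7 (-0.0065 without replicate 1 of dKO DMSO, with -0.0065 to 0.087 over the fits without 1 library). For MI-503 in WT, they were Psmb6 (0.059) and Psmd10 (0.11) with library size only, and Psmd10 with no filter or the stricter one (0.013). For MI-503 in dKO, they were Psma7 (-0.015 with no filter, -0.014 with only the groups compared, -0.0010 without replicate 1 of dKO MI-503, -0.0057 without replicate 2 of dKO DMSO), Psma6 (0.021 without replicate 1 of dKO DMSO), Psmb5 (0.024 without replicate 2 of dKO DMSO, 0.020 without replicate 2 of dKO MI-503) and Psmd10 (-0.030 without replicate 2 of dKO DMSO), with ranges over the fits without 1 library of -0.0057 to 0.021 for Psma7, -0.13 to 0.021 for Psma6, -0.29 to 0.024 for Psmb5 and -0.030 to 0.13 for Psmd10. The MI-503 genotype values that turned were Psmb10 (0.037 with library size only, 0.072 without replicate 1 of WT MI-503, 0.071 without replicate 2 of dKO MI-503), Psmd6 (0.026 with library size only) and Psme3 (-0.011 without replicate 1 of WT MI-503), with ranges of -0.14 to 0.072 for Psmb10 and -0.011 to 0.058 for Psme3. In the interaction they were Psmd10 (-0.046 with library size only) and Psmd13 (0.0045 without replicate 1 of dKO DMSO, range -0.083 to 0.0045).

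Over all genes tested, deviations from the group means correlated at -0.0886 to 0.0585 between libraries with the same replicate number. Such values cannot exclude a shared culture or batch, and the labels do not state one. With a replicate block, 11 and 23, 14 and 20, 8 and 11, 10 and 14, and 18 and 11 members were higher and lower in dKO against WT in DMSO, MI-503 in WT, MI-503 in dKO, dKO against WT in MI-503 and the interaction. The block ended the calls of Psmd12 for MI-503 in dKO (adjusted p = 0.0595) and Psmd4 in dKO against WT in MI-503 (0.0634), and made that of Psmb10 in the interaction (-0.46, adjusted p = 0.0484).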
